A study of Mus musculus with 14 samples.

Results

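In mouse dorsal root ganglia, 8 microRNAs (miR-1982-3p, miR-3060-3p, miR-3061-5p, miR-3095-3p, miR-7044-3p, miR-7688-5p, miR-676-5p and miR-8114) were chosen by their low measured levels in the strain CAST/Ei against C57BL/6, outside the imprinted miRNA clusters. All listed arms of the same hairpins were then taken, which gave 14 mature arms out of 1123 mature miRNAs listed. The 6 arms added in this way were miR-676-3p, miR-1982-5p, miR-3061-3p, miR-3095-5p, miR-7044-5p and miR-7688-3p, and miR-8114 has a single listed arm. Because the strain contrast chose the 8 arms, their strain differences are given as a description, with no test, in naive and in injured ganglia alike. Injury was not used to choose them and was tested.

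Dorsal root ganglia hold the cell bodies of sensory neurons with their glia, and small RNA was sequenced from whole dissociated ganglia. There were 14 libraries, namely 5 from naive C57BL/6, 3 from injured C57BL/6, 3 from naive CAST/Ei and 3 from injured CAST/Ei mice. The libraries of a group are biological replicates according to the series' design text. Injured animals of both strains were adult males of 8 to 10 weeks in which smooth forceps had closed on the left sciatic nerve for 30 s, while naive animals carry the treatment label none, with no age or sex in the sources used here. The time from crush to dissection and the spinal level of the ganglia are not given there either. C57BL/6 is the common inbred laboratory strain, and CAST/Ei is an inbred strain derived from wild castaneus mice and known for strong regrowth of injured axons. In bulk ganglia, fewer cells of a type and less RNA per cell cannot be told apart.

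A miRNA is cut from a hairpin in a longer transcript, usually by Drosha in the nucleus and then by Dicer in the cytoplasm. The hairpin gives a 5p arm and a 3p arm, and usually one of them is kept in Argonaute, where the seed (bases 2 to 8) pairs with target mRNAs. In a mirtron the hairpin is itself a short intron, so that splicing takes the place of Drosha at one or both ends.

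The mature sequences from RefSeq (GRCm38.p6) are shown because the seed largely decides which transcripts a miRNA pairs with. The seed is in capitals.
miR-1982-3p: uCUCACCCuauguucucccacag
miR-3060-3p: cCAUAGCAcagaagcacuccca
miR-3061-5p: cAGUGGGCcgugaaagguagcc
miR-3095-3p: uGGACACUggagagagagcuuuu
miR-7044-3p: aUGCAGCCccgacccucacag
miR-7688-5p: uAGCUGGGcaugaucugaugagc
miR-8114: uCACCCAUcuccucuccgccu
miR-676-3p: cCGUCCUGagguuguugagcu
RefSeq sequences matched 12 of the 14 arms, all but miR-676-5p (a chosen arm) and miR-3095-5p, and 918 of the 1123 listed miRNAs. The 12 arms shared no seed with each other or with any other matched miRNA. None of the 12 sequences occurs in the hairpin of another listed miRNA.

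The 8 hairpins lay at 8 separate places, on chromosomes 1, 4, 6, 10, 11 and X, and none had another listed hairpin within 10000 bases. The miR-1982 hairpin (chr10:80828797-80828870, plus strand, GRCm38) fills an intron of Oaz1 from the base after one exon to the base before the next. Oaz1 encodes an antizyme that holds back polyamine synthesis, and a longer Oaz1 transcript model reads through the same bases as exon. The miR-7044 hairpin (chr6:118085192-118085263, plus strand) ends at the base before an exon of Rasgef1a, which encodes an exchange factor for Ras-like GTPases, and overlaps an alternative exon of that gene. Both hairpins are given with their first and last pair of bases in capitals, to show which of them match the usual ends of an intron. In miR-1982 both ends adjoin an exon, and in miR-7044 only the 3′ end does.
miR-1982 hairpin: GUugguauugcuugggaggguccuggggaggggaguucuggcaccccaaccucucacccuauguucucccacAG
miR-7044 hairpin: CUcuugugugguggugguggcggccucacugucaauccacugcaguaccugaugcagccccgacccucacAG
The miR-1982 hairpin starts with GU and ends with AG, the usual ends of an intron. The miR-7044 hairpin ends with AG and starts with CU, inside the annotated intron. Of 590 hairpins of listed miRNAs, 12 (2.03%) filled an intron exactly and 108 (18.3%) ended next to an exon, against 1 and 2 of these 8.

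The miR-3060 hairpin (chr11:4139364-4139446, plus strand) lies in an intron of Rnf215, which encodes a RING finger protein. The miR-3095 hairpin (chr4:58441012-58441098, minus strand) lies in an intron of Lpar1, a receptor for lysophosphatidic acid. The miR-676 hairpin (chrX:100381097-100381185, plus strand) lies in an intron of Eda, the signalling protein ectodysplasin. The miR-3061 hairpin (chr11:52126746-52126836, plus strand) lies within the 3′ untranslated region of Ppp2ca, which encodes the catalytic subunit of protein phosphatase 2A. The miR-8114 hairpin (chr1:153899926-153900036, plus strand) overlaps the start and the 5′ untranslated region of Glul, which encodes glutamine synthetase. The miR-7688 hairpin (chr10:93433107-93433162, plus strand) lies in no annotated protein-coding gene on its strand. In all, 4 of the 8 hairpins overlapped a protein-coding exon on their strand, against 80 of 590 (13.6%). Whether reads assigned to those 4 came from the hairpin or from fragments of the host transcript was not tested.

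The libraries held between 4007706 and 15642360 reads assigned to miRNAs, with 949 to 1084 of the miRNAs detected. Levels are in CPM, read counts relative to a library size that the depositors had adjusted by TMM (a trimmed mean of ratios), and 1 read was worth 0.0674 to 0.253 CPM. A count of 0 in a library therefore allows up to 0.202 to 0.760 CPM (3 reads). Intervals and these limits cover counting error only. A CAST/Ei value counts the reads that were assigned to the listed miRNA. How the alignment treated reads with a base that differs between the strains is not stated in the sources used here, so a low level and unassigned reads cannot be told apart in any low CAST/Ei value. The neuronal markers miR-124-3p, miR-138-5p, miR-182-5p, miR-183-5p and miR-96-5p, with miR-338-3p of myelinating glia, were present in all 14 libraries. The other glial marker, miR-219a-2-3p, was scarce (0.574 to 31.8 CPM), so summed glial markers are nearly all miR-338-3p. All leukocyte, erythrocyte, skeletal muscle, hepatocyte and epithelial markers looked at were present in all 14 libraries too. Among them miR-451a of erythrocytes was at 6315 to 25078 CPM and miR-1a-3p of skeletal muscle at 3338 to 13406 CPM. C57BL/6 naive libraries 4 and 5 stood apart, with Spearman correlations across miRNAs of 0.871 to 0.926 with the other 12 libraries, against at least 0.925 among those 12. Their summed epithelial markers (3 of 3 listed, none at 0) were 186 to 1030 CPM against 21.2 to 24.3 CPM in naive libraries 1 to 3, and the hepatocyte marker miR-122-5p was 369 to 661 against 8.63 to 15.7 CPM. Their summed glial markers (2 of 2 listed, none at 0) were 6736 to 7118 CPM against 15064 to 33992 CPM in naive libraries 1 to 3. The epithelial sums were 19.0 to 48.7 CPM after injury in C57BL/6, and in CAST/Ei 104 to 134 CPM in naive and 39.4 to 55.8 CPM in injured ganglia. A strain ratio or an injury result is given with and without libraries 4 and 5 where leaving them out moves it by over 1.5 times or turns its direction.

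The 8 chosen arms summed to 152 ± 45.0 CPM (SD, n = 5) in C57BL/6 naive and 114 ± 13.6 CPM (n = 3) in C57BL/6 injured ganglia, against 16.7 ± 2.58 and 14.1 ± 3.67 CPM (n = 3 each) in CAST/Ei. Most of what remained in CAST/Ei was miR-676-5p, since without it the means were 94.4 and 70.3 CPM in C57BL/6 against 2.63 and 3.15 CPM in CAST/Ei. Each C57BL/6 library held reads of all 8 arms, and the CAST/Ei libraries held reads of 4 to 6. In each of the 8 arms every CAST/Ei library was below every C57BL/6 library, in naive and in injured ganglia. Of the 638 miRNAs that reached 5 CPM in 3 or more libraries, 45 (7.05%) had that pattern in naive ganglia and 131 (20.5%) in injured ganglia. The arms were selected on this contrast, so nothing is read from that excess.

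**Figure D1:**
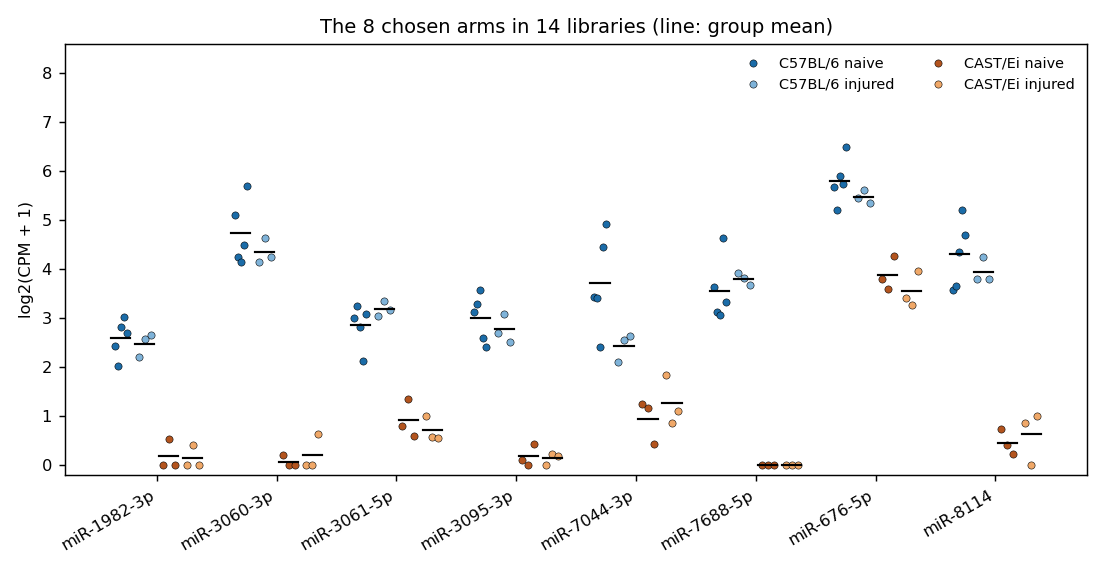
Level of each of the 8 chosen arms in the 14 libraries, as log2(CPM + 1) on the vertical axis, with 1 point per library coloured by group and a line at the group's mean of the plotted values. The CAST/Ei points lie below the C57BL/6 points in each arm, at 0 in all 6 libraries for miR-7688-5p and well above 0 for miR-676-5p.

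miR-7688-5p was the chosen arm with no assigned read in any CAST/Ei library. It measured 11.5, 7.78, 7.35, 23.9 and 9.03 CPM in C57BL/6 naive libraries 1 to 5, and 14.2, 13.1 and 11.7 CPM in the injured ones. These are 465 and 400 reads against 0 and 0. Against a floor of 3 reads over the CAST/Ei group, C57BL/6 was 118-fold higher in naive and 139-fold higher in injured ganglia. The exact two-sided 95% intervals of the ratio began at 95.5 and 112. They are lower because they set a stricter limit on a count of 0 than 3 reads, and they also count the C57BL/6 reads' error. Its 3p arm was scarce in both strains, with 12 and 14 reads in the C57BL/6 groups and 0 and 2 in CAST/Ei. In C57BL/6, 97.5% (95% exact interval 95.6 to 98.7) of the hairpin's reads in naive and 96.6% (94.4 to 98.1) in injured ganglia came from the 5p arm. The hairpin is shown with both arms in capitals, because it is the one whose dominant arm was not detected in CAST/Ei.
miR-7688 hairpin: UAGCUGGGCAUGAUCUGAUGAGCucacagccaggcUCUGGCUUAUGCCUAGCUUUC
The arms make up nearly the whole annotated hairpin, which is the shortest of the 8 at 56 bases.

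miR-3060-3p, the intronic miRNA of Rnf215, was the most abundant of the near-absent arms. It stood at 33.3, 18.1, 16.7, 21.4 and 50.6 CPM in C57BL/6 naive and at 16.6, 24.0 and 17.9 CPM in C57BL/6 injured libraries. In CAST/Ei it was at 0.145, 0 and 0 CPM in naive and at 0, 0 and 0.539 CPM in injured libraries. Reads were thus found in 1 CAST/Ei library of each condition, 2 reads in naive library 1 and 8 in injured library 3. The ratio of C57BL/6 to CAST/Ei levels from the summed reads was 375-fold (95% exact interval 104 to 3105) in naive and 77.8-fold (39.2 to 181) in injured ganglia. The wide interval in naive ganglia comes with the 2 CAST/Ei reads behind it.

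miR-3095-3p, from the Lpar1 intron, measured 7.67, 8.83, 10.9, 5.05 and 4.33 CPM in C57BL/6 naive and 5.48, 7.50 and 4.73 CPM in C57BL/6 injured libraries. The CAST/Ei values were 0.0724, 0 and 0.344 CPM in naive and 0, 0.161 and 0.135 CPM in injured libraries. Both CAST/Ei groups rest on 3 reads, and the ratios were 69.7-fold (23.6 to 340) and 62.4-fold (21.03 to 306). The other arm, miR-3095-5p, was listed at 0.459 to 0.752 CPM in C57BL/6 naive and 0.819 to 1.29 CPM in C57BL/6 injured libraries. It had reads in 1 of 6 CAST/Ei libraries, 5 reads (0.362 CPM) in naive library 1. The ratio for miR-3095-5p in naive ganglia was 3.04-fold (1.11 to 10.4), from 2 to 6 reads in each C57BL/6 library. The listed values of this arm did not overlap between the strains, but at this depth the naive groups could not be told apart library by library, since a 0 in CAST/Ei naive library 3 allows up to 0.516 CPM.

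miR-1982-3p, the 3′ end of the Oaz1 intron, was low in C57BL/6 too. It measured 4.38, 3.08, 6.08, 7.12 and 5.46 CPM in naive and 3.58, 4.93 and 5.28 CPM in injured C57BL/6 libraries. In CAST/Ei, naive library 2 had 0.445 CPM (4 reads), injured library 2 had 0.321 CPM (2 reads), and the other 4 libraries had none. The ratios were 35.2-fold (13.5 to 131) and 73.9-fold (20.1 to 616). Its 5p arm went the other way in read numbers, with 3 and 1 reads in the C57BL/6 groups against 12 and 3 in CAST/Ei. Of the 12 reads, 10 came from CAST/Ei naive library 1 (0.724 CPM), and the groups overlapped at 0 CPM in both conditions. No CAST/Ei library had reads of both miR-1982 arms.

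miR-8114, at the start of Glul, measured 10.96, 11.7, 19.5, 36.1 and 24.8 CPM in C57BL/6 naive and 12.9, 18.1 and 12.8 CPM in C57BL/6 injured libraries. In CAST/Ei it was at 0.652, 0.334 and 0.172 CPM in naive and 0.822, 0 and 1.01 CPM in injured libraries. The ratio was 43.7-fold (25.4 to 82.5) in naive ganglia, and 28.1-fold (16.2 to 53.4) without C57BL/6 naive libraries 4 and 5, which hold its highest values. In injured ganglia it was 19.4-fold (12.9 to 30.6).

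miR-3061-5p and miR-7044-3p were low in CAST/Ei rather than near 0, with reads of both in all 6 CAST/Ei libraries. miR-3061-5p, from the Ppp2ca transcript's end, measured 6.99, 8.51, 6.08, 3.33 and 7.52 CPM in C57BL/6 naive and 7.27, 9.24 and 8.01 CPM in C57BL/6 injured libraries. Its CAST/Ei values were 0.724, 1.56 and 0.516 CPM in naive and 1.004, 0.482 and 0.472 CPM in injured libraries. The lowest C57BL/6 library, naive 4, was 3.33 CPM, still above the highest CAST/Ei library at 1.56 CPM. The ratios were 7.02-fold (4.71 to 10.9) in naive and 12.4-fold (7.96 to 20.5) in injured ganglia.

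The 3p arm of miR-3061 was at 3.70, 2.27, 3.55, 8.73 and 12.4 CPM in C57BL/6 naive and 4.48, 1.34 and 2.64 CPM in C57BL/6 injured libraries. It was at 0.217, 0.222 and 1.03 CPM in naive and 1.10, 1.45 and 0.472 CPM in injured CAST/Ei libraries. The strains overlapped in injured ganglia for this arm and did not in naive ganglia. Within C57BL/6 naive ganglia the 5p share of the hairpin's reads was 27.6% and 37.7% in libraries 4 and 5 against 63.2% to 78.9% in libraries 1 to 3. The ratio of the strains for miR-3061-3p in naive ganglia was 14.6-fold (7.99 to 29.7) with libraries 4 and 5 and 7.61-fold (3.9996 to 15.9) without them. The part of the markers that set those libraries apart in these values was not tested.

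miR-7044-3p, at the edge of the Rasgef1a exon, measured 9.73, 9.64, 4.31, 21.02 and 29.2 CPM in C57BL/6 naive and 3.29, 4.83 and 5.19 CPM in C57BL/6 injured libraries. CAST/Ei libraries had 1.38, 1.22 and 0.344 CPM in naive and 2.56, 0.803 and 1.15 CPM in injured ganglia. The groups of each condition did not overlap, although in injured ganglia the lowest C57BL/6 value (3.29 CPM) lay close to the highest CAST/Ei value (2.56 CPM). The ratio was 12.96-fold (9.07 to 19.1) in naive ganglia, 7.85-fold (5.39 to 11.8) without C57BL/6 naive libraries 4 and 5, and 2.85-fold (2.05 to 4.03) in injured ganglia. miR-7044-5p, in contrast, was at 0 to 1.84 CPM in C57BL/6 and 0.274 to 1.03 CPM in CAST/Ei libraries, with overlap in both conditions. Its summed reads gave ratios of 1.32 (0.795 to 2.22) and 0.781 (0.337 to 1.76). The 5p arm thus made up 7.63% of the hairpin's 590 reads in C57BL/6 naive and 44.8% of 58 reads in CAST/Ei naive ganglia, and the libraries' shares did not overlap there (0% to 26.1% against 38.7% to 75.0%). The 26.1% is 6 of 23 reads in C57BL/6 naive library 3, and the 38.7% is 12 of 31 reads in CAST/Ei naive library 1. At this depth those libraries could not be told apart. In injured ganglia the shares were 8.05% of 149 and 24.2% of 66 reads, and the libraries overlapped.

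**Figure D2:**
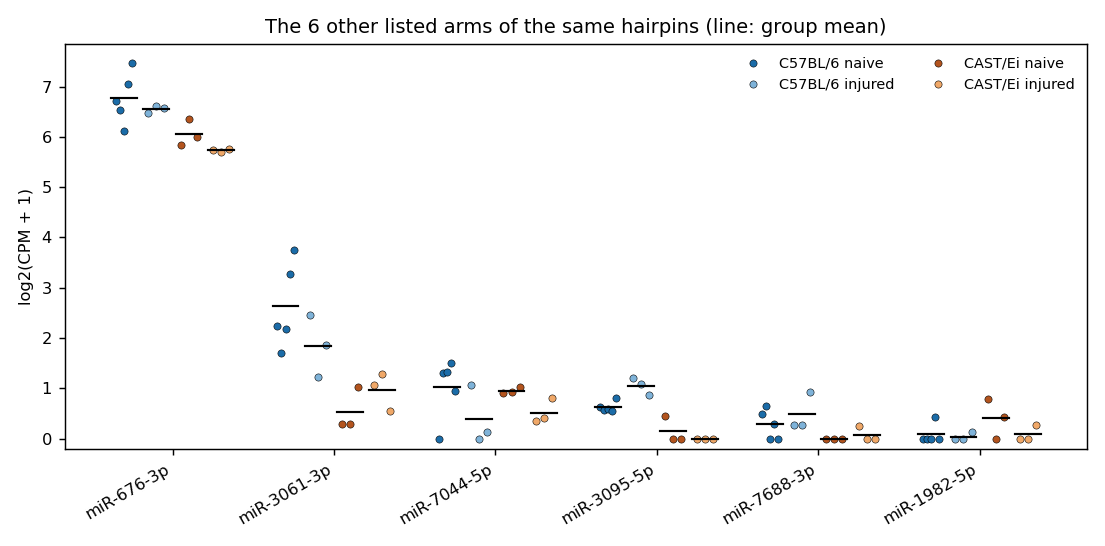
Level of the 6 other listed arms of the same hairpins in the 14 libraries, as log2(CPM + 1), with points coloured by group and a line at each group's mean. miR-676-3p is abundant in both strains, miR-3061-3p and miR-3095-5p sit lower in CAST/Ei naive than in C57BL/6 naive libraries, and the points of miR-7044-5p and miR-1982-5p overlap between strains. For miR-3095-5p the C57BL/6 naive points rest on 2 to 6 reads each, too few to tell the naive libraries of the strains apart.

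The description "near absent" did not hold for miR-676-5p, the arm from the Eda intron on the X chromosome. It measured 50.0, 36.2, 59.0, 52.6 and 89.2 CPM in C57BL/6 naive and 43.1, 47.8 and 39.7 CPM in C57BL/6 injured libraries. CAST/Ei libraries held 12.8, 11.1 and 18.2 CPM in naive and 9.68, 8.67 and 14.5 CPM in injured ganglia, from 54 to 215 reads each. The level was lower in every CAST/Ei library, by a ratio of 3.93 (3.52 to 4.39) in naive and 3.70 (3.30 to 4.16) in injured ganglia, but far from 0.

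Its partner miR-676-3p was more abundant than miR-676-5p in each of the 14 libraries. It measured 104, 91.1, 68.7, 131 and 177 CPM in C57BL/6 naive and 88.2, 97.1 and 93.9 CPM in C57BL/6 injured libraries. In CAST/Ei it was at 56.3, 80.8 and 62.8 CPM in naive and 52.0, 50.6 and 53.5 CPM in injured libraries. The ratios were 1.72 (1.63 to 1.82) and 1.77 (1.67 to 1.89), and the libraries overlapped in naive but not in injured ganglia. The arms of 1 hairpin therefore differed in size of strain difference. The 5p share of miR-676 reads was 31.8% in both C57BL/6 groups, with libraries at 28.5% to 46.2% in naive and 29.7% to 33.0% in injured ganglia. In CAST/Ei it was 17.0% in naive (libraries 12.1% to 22.5%) and 18.3% in injured ganglia (14.6% to 21.3%). No CAST/Ei library reached the lowest C57BL/6 library, and the highest share, 46.2%, belonged to C57BL/6 naive library 3, the library with the fewest reads.

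**Figure D3:**
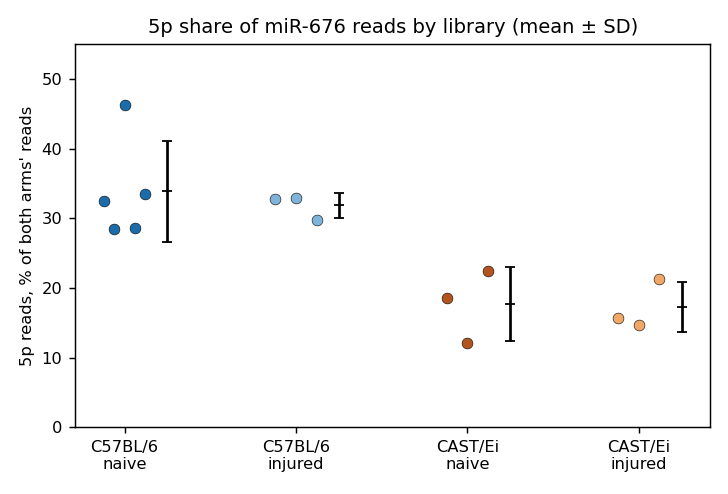
Share of the miR-676 hairpin's reads that came from the 5p arm, in percent, for each library by group, with the mean and SD over libraries beside the points. C57BL/6 libraries lie between 28.5% and 46.2% and CAST/Ei libraries between 12.1% and 22.5%.

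Over the 6 arms that were not chosen, 2 (miR-3061-3p and miR-3095-5p) were lower in all CAST/Ei libraries without overlap in naive ganglia. In injured ganglia 3 (miR-676-3p, miR-3095-5p and miR-7688-3p) had this pattern, the last of them at 0.199 to 0.910 CPM in C57BL/6 against 0.183, 0 and 0 CPM. For miR-7688-3p, C57BL/6 injured libraries 1 and 2 and CAST/Ei injured library 1 held 2 reads each. A 0 in CAST/Ei injured library 2 allows up to 0.482 CPM, so this arm's groups could not be told apart library by library. The background shares of 7.05% in naive and 20.5% in injured ganglia are over miRNAs that reached 5 CPM in 3 or more libraries, which among these 6 arms only miR-676-3p did. The counts of these scarce arms are therefore not comparable with them and are given as a description. The arms of a hairpin share a transcript and are not independent of each other.

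To place the arms among other miRNAs, the mean over the 6 CAST/Ei libraries was divided by the mean over the 8 C57BL/6 libraries for the 560 miRNAs with a mean of at least 5 CPM in both C57BL/6 groups. The median ratio was 98.5%, and 7 miRNAs were below 10%. Of these 7, 4 were miR-7688-5p (0%, rank 1), miR-3060-3p (0.459%, rank 2), miR-3095-3p (1.74%, rank 5) and miR-8114 (2.71%, rank 6). miR-3061-5p followed at 11.1% (rank 9), miR-676-5p at 23.9% (rank 18) and miR-676-3p at 55.8% (rank 58). miR-1982-3p and miR-7044-3p had a mean below 5 CPM in injured C57BL/6 ganglia (4.60 and 4.43 CPM) and were not ranked.

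The 5 miRNAs outside the 8 hairpins with the lowest ratios were miR-467c-5p (0.512%), miR-341-3p (1.39%), miR-1188-5p (6.06%), miR-150-5p (10.9%) and miR-3065-3p (11.2%). All CAST/Ei libraries were below all C57BL/6 libraries in 4 of these, the exception being miR-150-5p. By this measure, which is a description over 14 libraries that pools naive and injured ganglia, they are the miRNAs most like the chosen arms. The mean of miR-150-5p was 1468 CPM in C57BL/6 naive against 120 CPM in CAST/Ei naive ganglia. In injured ganglia it was 205 against 96.7 CPM, so its low ratio came mainly from the naive groups. Its C57BL/6 libraries were far apart, from 149 to 2713 CPM. The ranking was not limited to miRNAs outside the imprinted clusters, as the choice of the 8 arms was. It was also not repeated without C57BL/6 naive libraries 4 and 5.

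**Figure D4:**
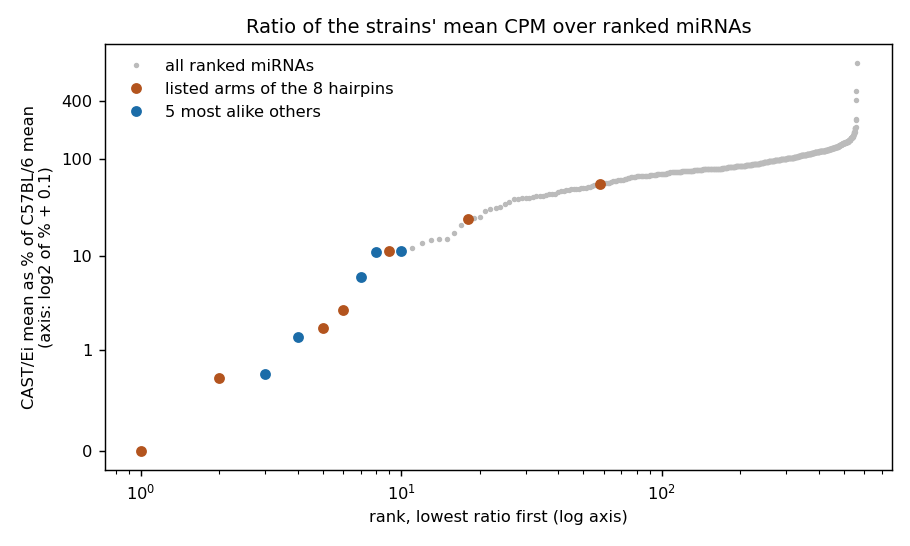
Ratio of the CAST/Ei mean to the C57BL/6 mean in percent (vertical axis, log2 of the percent plus 0.1) against its rank among 560 miRNAs, lowest first (log axis). Arms of the 8 hairpins (orange) take ranks 1, 2, 5, 6, 9, 18 and 58, the 5 most alike other miRNAs (blue) ranks 3, 4, 7, 8 and 10, and the remaining miRNAs (grey) centre on 98.5%.

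The response to nerve crush was tested with limma on log2(CPM + 1) over all 638 miRNAs, with p-values adjusted over all of them by the Benjamini-Hochberg method. Of the 14 arms, 9 could be tested, the 8 chosen ones and miR-676-3p. The chosen arms other than miR-676-5p entered the test through their C57BL/6 values, as none of them reached 5 CPM in a CAST/Ei library. In C57BL/6, 0 of the 9 arms passed an adjusted p of 0.05 with limma, against 20 of 638 miRNAs (3.13%). At an unadjusted p under 0.05 the numbers were 1 of 9 and 151 of 638. The edgeR quasi-likelihood test called 0 of the 9 arms, against 32 of 638 miRNAs. The DESeq2 Wald test called 1 of the 9 arms, against 79 of 638 miRNAs, so nothing is read from that count. The median log2 change of the 9 arms was -0.23, with 7 below 0, against a median of 0.12 over all 638 miRNAs, of which 271 (42.5%) were below 0. Without C57BL/6 naive libraries 4 and 5 the count was 4 of the 8 arms still tested, with a median of -0.02, against 39.2% of 627 miRNAs below 0. miR-676-3p (0.10) and miR-8114 (0.081) then lay above 0.

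miR-7044-3p had the largest change of the 9. Its mean was 14.8 ± 10.1 CPM (SD, n = 5) in naive and 4.43 ± 1.01 CPM (n = 3) in injured C57BL/6 ganglia, with naive library 3 (4.31 CPM) inside the range of the injured libraries. The log2 change was -1.30 (SE 0.47, 95% interval -2.30 to -0.30), with a limma adjusted p of 0.129, so it missed the threshold. It passed with DESeq2 (-1.83, adjusted p = 0.0150) and, with limma, without C57BL/6 naive library 3 (-1.63, adjusted p = 0.0230). Without C57BL/6 naive libraries 4 and 5, which hold its highest values, the change was -0.66 (adjusted p = 0.390, limma). Over all alternatives the adjusted p ran from 0.0150 to 0.390. The epithelial and hepatocyte markers were also high in libraries 4 and 5, and their part in the change was not tested.

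With all libraries, the other 8 arms in C57BL/6 had log2 changes between -0.39 (miR-3060-3p, 95% interval -1.13 to 0.35) and 0.34 (miR-3061-5p, -0.31 to 0.98). For miR-7688-5p the change was 0.25 (-0.45 to 0.94) and for miR-676-5p -0.33 (-0.97 to 0.30). The intervals for all 8 included 0, and together they reached from -1.16 (miR-8114) to 0.98 (miR-3061-5p) on the log2 scale, so changes of that size could not be told from none. Limma adjusted p-values over the 9 arms ran from 0.129 to 0.808.

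In CAST/Ei the test says little about these arms, since 7 of the 9 reached 5 CPM in no CAST/Ei library and miR-7688-5p was at 0 throughout. Of the 9 arms, 0 passed with limma, 0 had an unadjusted p under 0.05, and 0 were called with edgeR or DESeq2. Limma called 7 of all 638 miRNAs (1.1%), edgeR 8 and DESeq2 15, and 41 had an unadjusted p under 0.05 with limma. The arms' counts cannot be read against those shares. The miR-676 arms were the 2 that also passed the minimum within CAST/Ei. Changes are given only for arms with at least 10 reads in each CAST/Ei group. They were -0.34 (95% interval -1.05 to 0.38) for miR-676-5p, -0.33 (-1.005 to 0.34) for miR-676-3p, 0.32 (-0.80 to 1.44) for miR-7044-3p, -0.20 (-0.93 to 0.52) for miR-3061-5p and 0.17 (-0.74 to 1.07) for miR-8114. For the other 4 arms both CAST/Ei groups held 0 to 8 reads, too few to show a change in either direction. miR-676-5p had nearly the same estimate in both strains, -0.33 in C57BL/6 and -0.34 in CAST/Ei, with a difference of -0.0015 (95% interval -0.96 to 0.96). Without C57BL/6 naive libraries 4 and 5 its C57BL/6 estimate was -0.13.

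The strain difference in the injury effect was past the threshold for 0 of the 9 arms with limma, edgeR and DESeq2. Of all 638 miRNAs it was past it for 0 (0.0%) with limma, 1 with edgeR and 9 with DESeq2. At an unadjusted limma p under 0.05 there were 1 of the 9 arms and 52 of 638 miRNAs. The 1 arm was miR-7044-3p, with a difference of 1.62 (SE 0.71) on the log2 scale, CAST/Ei change minus C57BL/6 change, and a limma adjusted p of 0.529. For miR-7688-5p, at 0 in all CAST/Ei libraries, this difference is the C57BL/6 change with its sign turned (-0.25).

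**Figure D5:**
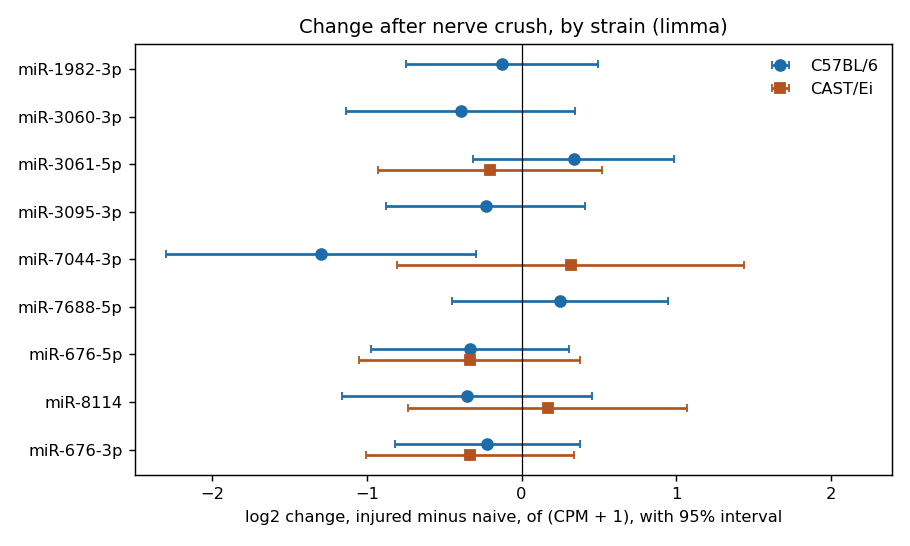
Log2 change of CPM + 1 from naive to injured ganglia with its 95% interval, from limma, for the 9 tested arms in C57BL/6 (circles) and for the 5 with at least 10 reads per group in CAST/Ei (squares). Each interval spans 0 except that of miR-7044-3p in C57BL/6 (-2.30 to -0.30), whose adjusted p was 0.129.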

How the data were processed

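Small RNA from 14 libraries was prepared with the miRVana and Ion Total RNA-Seq kits, per the labels' protocols, and aligned with Bowtie2, per the submitters' processing notes. No build, miRNA release, mismatch setting or batch is stated in the sources used here. The deposited signal is 1 value per mature miRNA and library. Dividing each value by the smallest one above 0 in its library gave whole numbers for 100% of them (tolerance 1e-06 reads). These reads, scaled as CPM on TMM-adjusted library sizes (edgeR 4.0.16), matched the signal to a relative difference of 1.04e-05. The totals were 4007706 to 15642360 reads. In C57BL/6 injured library 1 the recovery is the least certain.

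The arms were those of the 8 named hairpins, and the 5 most alike others were ranked by the strain ratio. Members and lists were chosen with earlier results of these data known. Limma 3.58.1 (trend, R 4.3.3) was fitted to log2(CPM + 1) with 1 mean per group, keeping the 638 miRNAs that reached 5 CPM in 3 or more libraries, with a Benjamini-Hochberg threshold of 0.05, two-sided, and was tested on simulated data. Ratios of summed reads carry exact 95% intervals. Alternatives were other pseudocounts, filters and scalings, edgeR, DESeq2 1.42.0, a replicate block and left-out libraries. Sequences and hairpin positions are RefSeq's (GRCm38.p6) and gene contexts GENCODE's for the same build.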

Additional observations from a re-analysis of the deposited data

Results flagged for a closer look

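In C57BL/6 naive ganglia the value listed for library 4 was separated from the other 4 libraries in 2 of the 14 arms, where chance flags about 1 group in 20. miR-7688-5p was at 23.9 CPM there, against 11.5 CPM in the next library. miR-1982-5p was at 0.345 CPM there (3 reads) and at 0 in the others, where a count of 0 allows up to 0.243 to 0.760 CPM, so for this arm the libraries could not be told apart at this depth. Library 4 is one of the pair of naive libraries with high epithelial and hepatocyte markers, whose part in these values was not tested.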

How the results depend on the processing

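The numbers of arms past the threshold were 0 in CAST/Ei and for the strain difference under each alternative run, but most arms are near 0 in CAST/Ei, where such a count could hardly move. The arms tested numbered 2 to 14 in CAST/Ei and 5 to 14 for the strain difference and for C57BL/6, depending on the filter and the groups fitted. In C57BL/6 the number was 1 with the DESeq2 Wald test, which called 79 of all 638 miRNAs. It was 0 to 1 over the fits that left out one library, the 1 being miR-7044-3p in both cases. Naive and injured libraries of the same number did not deviate together (correlations of -0.081, -0.049 and 0.31 in C57BL/6 and 0.15, 0.019 and -0.038 in CAST/Ei, the own number matching best in 1 of 3 and 2 of 3), so the numbers were not taken to pair them. With the replicate number as a replicate block the C57BL/6 number stayed at 0. Block estimates equal those without C57BL/6 naive libraries 4 and 5, since those numbers occur in no other group. With the block the log2 change of miR-676-3p in C57BL/6 turned to 0.10, that of miR-1982-3p to 0.045 and that of miR-8114 to 0.081, and without libraries 4 and 5 miR-676-3p was again 0.10 and miR-8114 0.081. miR-7688-5p turned to -0.0081 with edgeR. Leaving out one library at a time gave -0.27 to 0.011 for miR-1982-3p in C57BL/6, -0.36 to 0.016 for miR-3061-5p in CAST/Ei and -0.023 to 0.48 for miR-8114 in CAST/Ei, and -1.63 to -1.002 for miR-7044-3p in C57BL/6. The sign changes came without C57BL/6 injured library 1, CAST/Ei naive library 2 and CAST/Ei injured library 3, in that order. None of these sign changes passed the threshold, and the cause was not tested. Arms without overlap between strains, 10 of 14 in naive and 11 of 14 in injured ganglia (8 of them chosen for low CAST/Ei values), numbered 10 to 11 and 10 to 12 over the alternatives. They include miR-3095-5p in naive and miR-7688-3p in injured ganglia, whose libraries could not be told apart at this depth. The shares over the 638 miRNAs were 7.05% and 20.5%, and nothing is read from the difference. Plain CPM shifted the median log2 change of all miRNAs by 0.14 in C57BL/6 and 0.25 in CAST/Ei, and plain CPM without the 3 most abundant miRNAs by 0.21 in CAST/Ei. The fit of edgeR without C57BL/6 injured library 1 was chosen after seeing the data and called 0 arms. A minimum of 10 CPM removed arms, and those have no value under it. Depth limits the CAST/Ei values, most of which rest on fewer than 10 reads in a library.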
